A study of Rattus norvegicus with 56 samples.

Results

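Metabotropic glutamate receptors are receptors of the neurotransmitter glutamate that act through G proteins rather than by opening an ion channel themselves. Group I receptors, here Grm5, couple to Gq and phospholipase C, which releases calcium from internal stores, and sit mostly beside the postsynaptic density. Group II receptors, Grm2 and Grm3, and group III receptors, Grm4, Grm6, Grm7 and Grm8, couple to Gi and Go, which lower cyclic AMP. Most of them sit on presynaptic terminals and reduce transmitter release, Grm3 is also made by astrocytes, and Grm6 is known from bipolar cells of the retina. The transcripts of these 7 genes were followed in cultured rat hippocampal neurons after repetitive transcranial magnetic stimulation (rTMS). They were found by the RefSeq accession of each array probe, which gave 12 probes for the 7 genes among 45598 probes in all, and each gene was read from its brightest probe.

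The cells were primary cultures from the hippocampus of Sprague-Dawley rat embryos at embryonic day 18. Cultures received 1 Hz stimulation, with evenly spaced single pulses, or intermittent theta burst stimulation (iTBS), with short high-frequency bursts, at 15% of the maximal output of the machine. Sham cultures were kept in the incubator with the coil about 20 cm away, and RNA was taken 0, 2, 8, 24 or 48 h after the end of stimulation. Untreated control cultures, labelled CTR, were sampled at 0 h. Each of the 56 arrays held 1 sample in 1 of 16 groups of 3 or 4 arrays. Replicate 2 of the 1 Hz group at 2 h was left out because its grid had been marked as badly placed, and its signals correlated with the mean of the others at -0.01, against at least 0.97 for each of the other 55 arrays. The group of 1 Hz at 2 h therefore had 2 arrays. Sample descriptions were numbered in 4 runs, called series A (1 to 18), B (22 to 36), C (37 to 54) and D (D1 to D15) here, with 11, 12, 17 and 15 usable arrays. The labels do not say whether a series was a separate culture preparation, nor whether arrays of a group came from separate preparations, so p-values measure the spread between these samples.

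Levels are on a scaled log2 axis, centred so that each array averages 0 over its probes, and 1 unit is a difference of about 2-fold. A level belongs to its probe and was not set against that of another probe. Between 66.1% and 81.8% of noncontrol spots were well above background on the 55 arrays, and none was saturated. A gene passed a test when its p from limma, adjusted by Benjamini-Hochberg over all 35707 probes tested, was under 0.05. The small number of arrays per group limits how precise each value is.

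The 7 neuronal, 6 excitatory and 6 inhibitory markers were well above background on all 55 arrays, but so were all 9 astrocyte and all 7 oligodendrocyte lineage markers. Of 8 microglial markers, 2 were above background on every array (Cx3cr1 and Itgam), and Ptprc was so on 1 array. The mean level of the oligodendrocyte lineage list was 4.16 in series D (3.53 to 5.18) and 6.03 in A, 7.06 in B and 7.73 in C. The inhibitory list had a mean of 4.94 in series D (4.51 to 5.22) against 3.98 in A, 3.58 in B and 3.67 in C. The mean of the astrocyte list lay between 6.37 and 6.74 in the 4 series, but single astrocyte markers moved in opposite directions. Against A, B and C, Gfap differed in D by 2.95, 1.59 and 2.04, and Aldh1l1 by -1.22, -1.54 and -1.75. The endothelial, mural and fibroblast list lay between 0.48 (B) and 2.35 (D). The series thus differed in markers of several cell types, and the part of these differences in the receptor values was not tested. In such mixed RNA, fewer cells of a type and less RNA per cell cannot be told apart.

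Promoter sequence from RefSeq (assembly GRCr8) was held for 4 of the 7 genes, Grm5, Grm6, Grm7 and Grm8, as the 250 bases before the annotated start. A pair of them is printed because Grm5 had the largest difference between series and Grm7 had the highest share of G and C among the 4 windows, 62.0% against 36.4% for Grm5. Capitals mark matches, on either strand, to the GC box GGGCGG, which 30.5% of all 33469 windows held.
Grm5, chr1:150733503-150733752, plus strand: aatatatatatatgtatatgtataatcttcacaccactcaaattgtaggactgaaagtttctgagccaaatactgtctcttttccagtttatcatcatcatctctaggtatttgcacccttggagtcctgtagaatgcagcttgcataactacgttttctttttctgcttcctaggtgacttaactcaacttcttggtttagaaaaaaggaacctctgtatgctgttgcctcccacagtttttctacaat
Grm7, chr4:145286476-145286725, plus strand: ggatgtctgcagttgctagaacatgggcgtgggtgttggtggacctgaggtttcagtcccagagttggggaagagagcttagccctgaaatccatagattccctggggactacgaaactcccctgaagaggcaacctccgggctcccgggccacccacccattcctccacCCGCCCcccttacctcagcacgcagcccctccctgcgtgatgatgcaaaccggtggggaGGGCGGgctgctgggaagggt
The Grm7 window held 2 GC boxes and the other 3 windows none. The cyclic AMP response element TGACGTCA (1.59% of all windows), its core TGACG (18.2%), the TATA box TATAAA (12.9%) and the E-box CACGTG (5.59%), searched on both strands, were in none of the 4. These matches describe letters in the windows and were not related to any level below.

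All 7 receptors were measured: the brightest probe of each was well above background on 55 of 55 arrays. Before scaling, the processed signal of Grm5 ran from 164 to 4441 intensity units (median 684), that of Grm2 from 391 to 2898 (median 1140.1), and that of Grm3 from 225 to 2057 (median 720.4). Among the group III receptors, signals ran from 597 to 8752 for Grm4 (median 1276), from 363 to 1792 for Grm6 (median 696), from 39.2 to 686 for Grm7 (median 199.8) and from 28.4 to 369.97 for Grm8 (median 139). The probes of Grm7 and Grm8 were thus the dimmest on their lowest arrays, though still called above background there. The probe of Grm4 was printed 10 times on each array, and its spots differed by a coefficient of variation of 2.11% to 8.97% within an array (median 4.55%). On the log2 scale the SD between spots was 0.066 (median over arrays), while the SD of Grm4 within the groups was 0.50, which also holds the differences between culture series.

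Receptor levels differed most between the culture series. Each of the 7 members passed the moderated F test across series A to D, with group in the fit, beside 75.4% of all probes that did. The adjusted p was 2.8e-07 for Grm2, 5.0e-07 for Grm5, 5.5e-06 for Grm8, 3.4e-04 for Grm4, 0.0023 for Grm6, 0.0052 for Grm7 and 0.033 for Grm3. Of the 42 contrasts between a pair of series, 24 passed (57.1%, against 42.2% over all probes). Of the 21 contrasts with series D, 15 passed and all 15 were higher in D. Over all probes, 26.4% of the contrasts with D passed and were higher in D, and 49.04% passed in either direction.

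**Figure D1:**
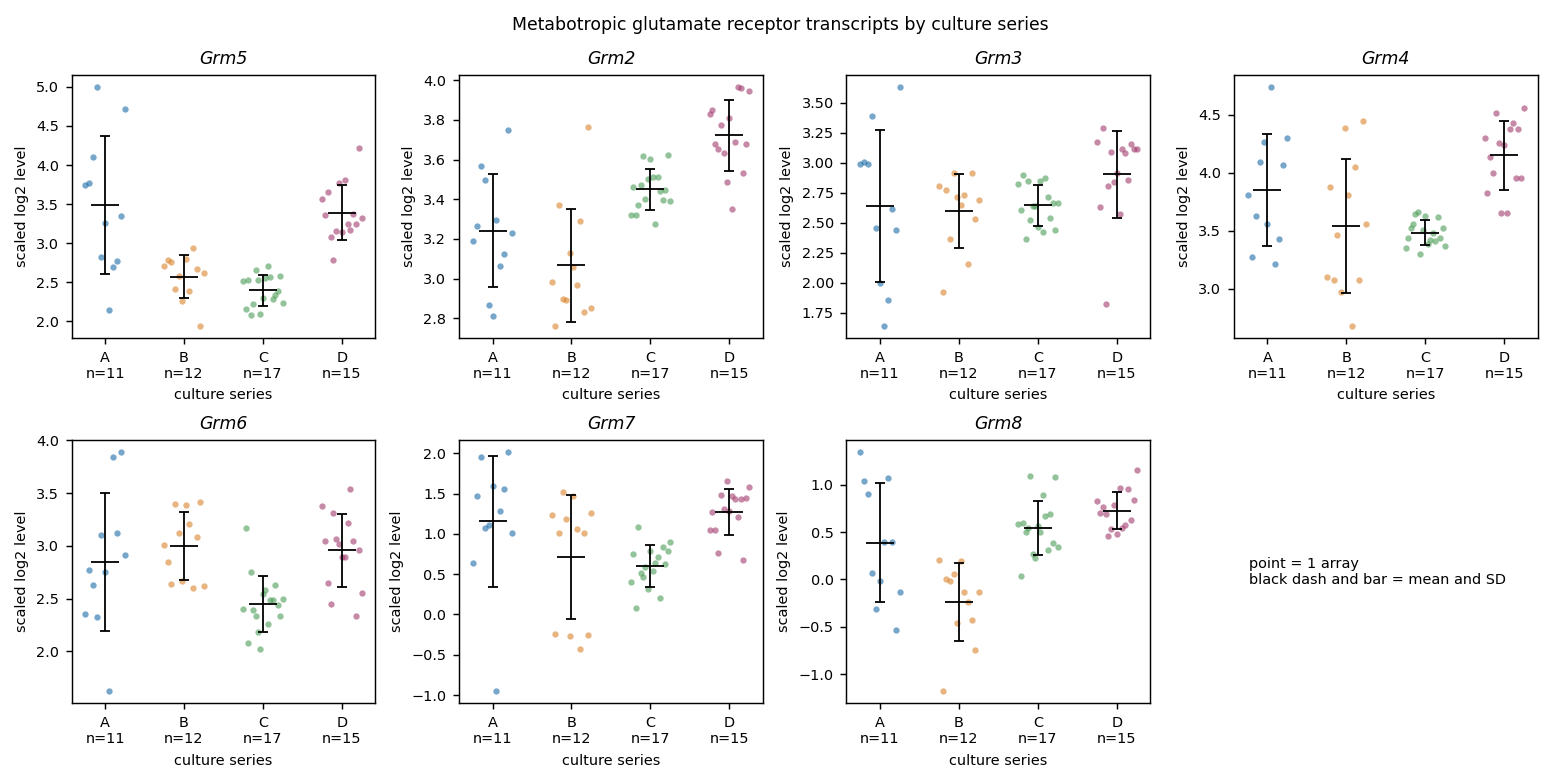
Scaled log2 level of each receptor (y axis) in culture series A to D (x axis), 1 point per array, with a black dash for the mean and a bar for the SD. Grm5 lay lower in B and C than in A and D, Grm8 was lowest in B, and series C had the narrowest spread for every receptor but Grm8.

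Grm5, the Gq-coupled receptor, moved most. Its level ran from 2.15 to 5.01 in series A (median 3.34), from 1.93 to 2.94 in B (2.65), from 2.08 to 2.71 in C (2.39) and from 2.78 to 4.21 in D (3.32). Every array of D lay above every array of C. The share of all probes that separated a pair of series in this way is not given, here or for Grm8 below. The fitted difference was 1.01 ± 0.17 (SE) for D against C (adjusted p = 3.3e-06; 6 of the 7 members passed this contrast, beside 52.5% of all probes) and 0.84 ± 0.18 for D against B (adjusted p = 2.1e-04; 6 members, beside 53% of probes). Series C was lower than A, with a difference of -1.05 ± 0.19 (adjusted p = 2.0e-05; 4 members, beside 42.9%), and so was B, with -0.88 ± 0.21 (adjusted p = 0.0017; 2 members, beside 30.4%). The widest spread was in series A, with an SD of 0.88 against 0.20 in C. The pairs D and A (-0.04 ± 0.20) and C and B (-0.18 ± 0.18) did not differ beyond their error.

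Grm2, a presynaptic receptor on glutamate terminals, was highest in series D. Its levels were 2.81 to 3.75 in A (median 3.23), 2.76 to 3.76 in B (2.98), 3.28 to 3.63 in C (3.45) and 3.35 to 3.97 in D (3.69), and the ranges of neighbouring series overlapped. Series D exceeded B by 0.67 ± 0.09 (adjusted p = 7.2e-08), A by 0.47 ± 0.10 (adjusted p = 1.4e-04; 3 members passed this contrast, beside 41.7% of probes) and C by 0.27 ± 0.08 (adjusted p = 0.0069). Series C exceeded B by 0.41 ± 0.09 (adjusted p = 5.6e-04; 3 members, beside 32.7%). Series A and B did not pass (-0.20 ± 0.10 for B against A).

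Grm3, the other group II receptor, changed least between series. Its median was 2.61 in A, 2.70 in B, 2.64 in C and 3.08 in D, and D exceeded A by 0.33 ± 0.14, B by 0.35 ± 0.13 and C by 0.29 ± 0.12 (adjusted p = 0.049, 0.019 and 0.034). The 4 ranges overlapped. Its F test was lost (adjusted p = 0.0512 to 0.0714) when any 1 of 7 arrays of series D was left out: sham at 24 h replicate 3, 1 Hz at 24 h replicate 3 and at 8 h replicate 4, and iTBS at 0 h replicate 4, 2 h replicate 4, 8 h replicate 3 and 24 h replicate 3.

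The group III receptors did not share 1 order of the series. Grm4 was higher in D (3.66 to 4.55, median 4.24) than in B (2.68 to 4.45, median 3.51) by 0.62 ± 0.16 (adjusted p = 9.9e-04) and than in C (3.30 to 3.66, median 3.48) by 0.64 ± 0.14 (adjusted p = 2.7e-04); the lowest array of D equalled the highest of C within 0.01. Grm6 was low in C, with a median of 2.44 against 3.04 in B and 3.01 in D, and the differences were -0.55 ± 0.15 for C against B (adjusted p = 0.0044) and 0.51 ± 0.14 for D against C (adjusted p = 0.0021). Grm7 had medians of 1.29 in A, 1.03 in B, 0.63 in C and 1.31 in D and was higher in D than in C by 0.66 ± 0.19 (adjusted p = 0.0041). Grm8 was lowest in B (-1.18 to 0.20, median -0.13), below all 15 arrays of D (0.46 to 1.15, median 0.70). It was higher in D than in B by 0.98 ± 0.15 (adjusted p = 1.1e-06) and in C than in B by 0.76 ± 0.15 (adjusted p = 1.6e-04). The lowest signals of Grm8, 28.4 intensity units and upwards, were in series B.

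Series A lay on slides 1 and 2, B on slides 3 and 4 and C on slides 5 to 7, so that they shared no slide. Differences among A, B and C could be set apart from differences between slides only through the arrays of series D. Series D had 2 or 3 arrays on each of the 7 slides and could be set against the others within a slide. Grm2, Grm3 and Grm4 were higher in D on 7 of 7 slides, by a median of 0.48, 0.17 and 0.43. For Grm3 the difference ran from 0.02 to 0.85. How many of all probes were higher in D on as many slides is not given. Grm5 and Grm6 were higher in D on 6 slides (medians 0.61 and 0.35), and Grm7 and Grm8 on 5 slides (medians 0.53 and 0.54). With slide as a block all 7 members again passed the F test, which 75.4% of all probes had passed without that block. The share of all probes passing with it is not given. However, 14 of the 24 contrasts between a pair of series no longer passed, and that of Grm4 between C and A turned from -0.39 to 0.55.

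**Figure D2:**
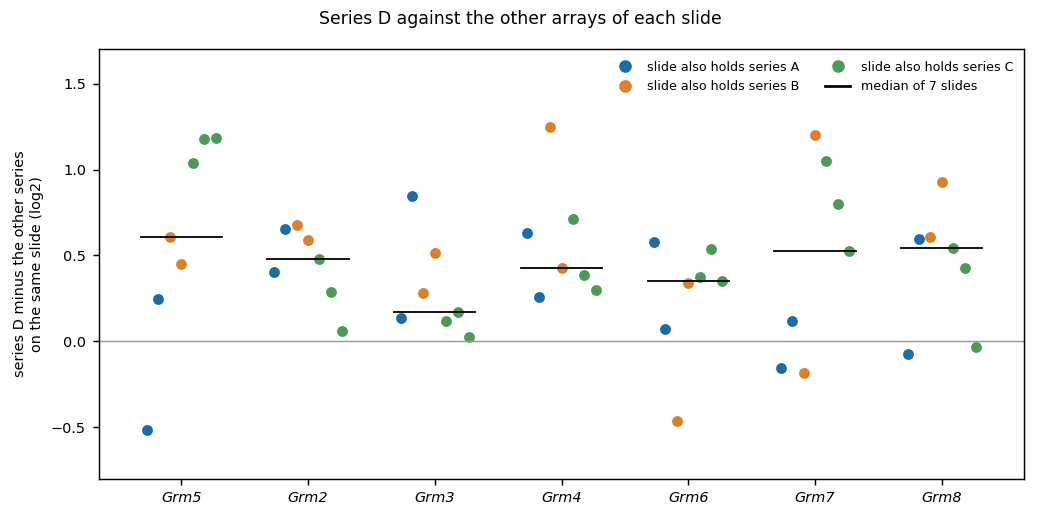
Mean level of series D minus the mean of the other series on the same slide (y axis, log2) for each receptor (x axis), 1 point per slide coloured by the other series on it, with a line at the median of 7 slides. All 7 points of Grm2, Grm3 and Grm4 lie above 0, while Grm5 has 1 slide at -0.52 and Grm6 1 slide at -0.46.

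The second question was whether 1 Hz or iTBS moved the receptors from sham at the same time. No member passed in any of the 10 comparisons, in each of which between 0% and 0.0056% of all probes passed. Of the 70 tests of members, 1 had an unadjusted p under 0.05 (1.43%), against 1.64% over all probes and comparisons. The fitted changes ran from -0.62 to 0.66 with standard errors of 0.25 to 0.61, so that changes of about that size could not be seen at these group sizes. A p that misses the threshold does not show that levels were alike. Some stimulated groups held other culture series than sham of the same time, so these changes also hold differences between series.

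**Figure D3:**
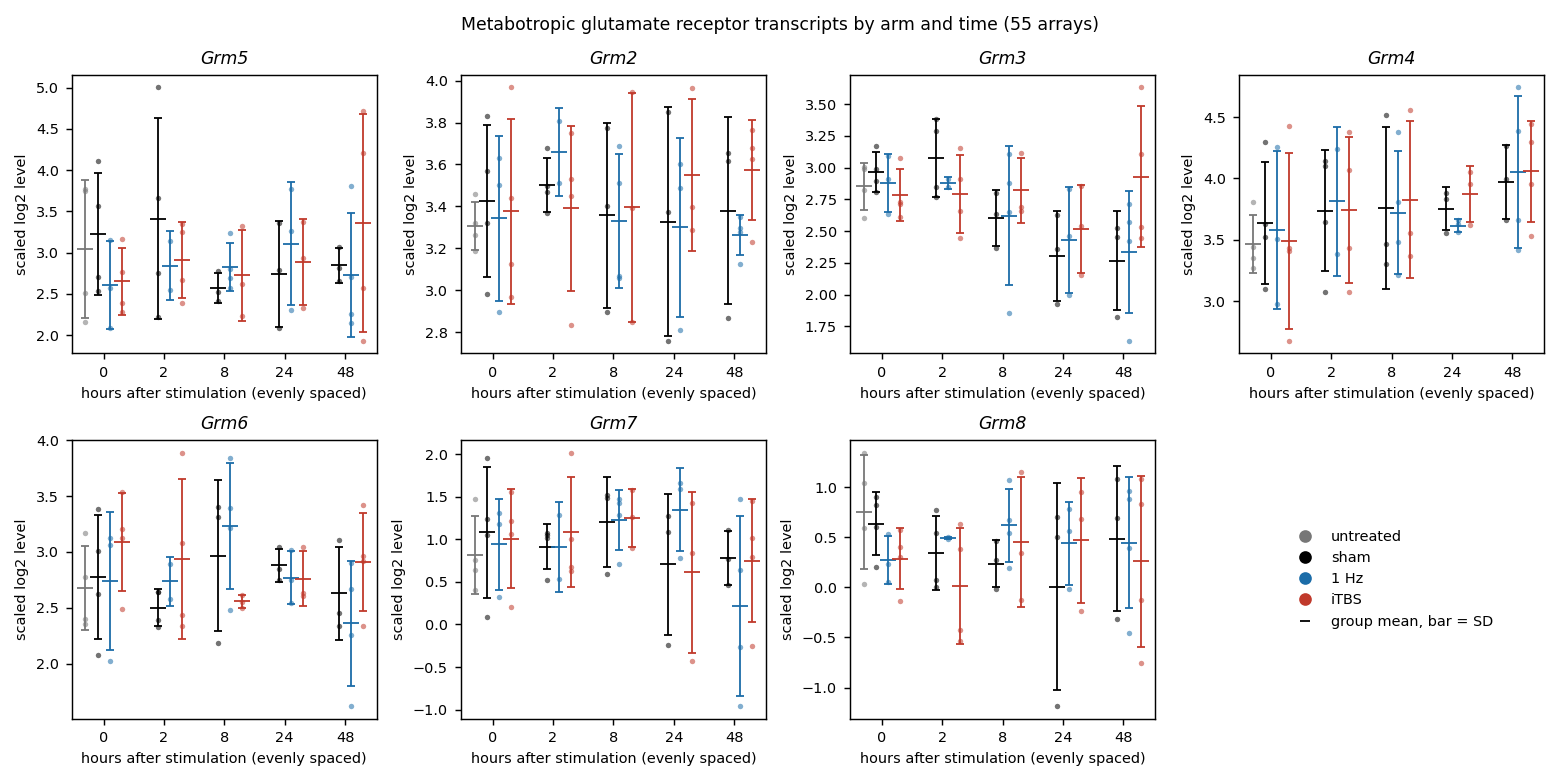
Scaled log2 level (y axis) of each receptor by hours after stimulation (x axis, evenly spaced) for untreated, sham, 1 Hz and iTBS cultures, 1 point per array, with the group mean as a dash and the SD as a bar. The 4 arms overlap at nearly every time, and Grm3 in sham and 1 Hz lies lower at 24 and 48 h than at 0 h.

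For the postsynaptic receptor Grm5, the lowest change from sham was -0.62 (0 h after 1 Hz) and the highest 0.51 (48 h after iTBS), with standard errors of at least 0.50, the largest of the 7 genes. Its levels at 48 h after iTBS show the spread: 4.72 in series A, 1.93 in B, 2.57 in C and 4.21 in D, against 2.82 (A), 2.66 (C) and 3.08 (D) after sham. The arrays of A and D were high and those of B and C low, so the groups overlapped. At 0 h the 1 Hz group had no array of series A, where Grm5 in sham was 4.11. Within series B, C and D, 1 Hz minus sham at 0 h was -0.13, -0.44 and -0.41.

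Grm3, which modulates release and is also made by astrocytes, gave the 1 unadjusted p under 0.05. At 48 h its levels after iTBS were 3.63 (series A), 2.53 (B), 2.44 (C) and 3.11 (D). After sham they were 2.46 (A), 2.53 (C) and 1.82 (D), and after 1 Hz 1.64 (A), 2.71 (B), 2.42 (C) and 2.57 (D). The iTBS arrays of A and D were above all others, that of B was level with the highest sham array, within 0.01, and that of C lay among the sham arrays. The fitted change was 0.66 ± 0.27 (95% interval 0.11 to 1.21, unadjusted p = 0.020) and did not pass limma's test after adjustment (adjusted p = 1.00). Against 1 Hz at the same time it was 0.59 ± 0.25 (unadjusted p = 0.023, adjusted p = 1.00). Within a series, iTBS minus sham was 1.18 in A, -0.08 in C and 1.29 in D. The astrocyte, neuronal and other marker lists at this time are given below with the time courses.

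Among the other members, changes were smaller than or near their errors. Grm2 changed by -0.12 to 0.22 over the 10 comparisons, and Grm4 by -0.15 to 0.12, the narrowest ranges. Grm6 changed by -0.41 (iTBS at 8 h) to 0.43 (iTBS at 2 h). Grm7 changed by -0.56 (1 Hz at 48 h) to 0.64 (1 Hz at 24 h) and Grm8 by -0.36 (1 Hz at 0 h) to 0.46 (iTBS at 24 h). At 24 h the 1 Hz arrays were of series A, C and D and the sham arrays of B, C and D. Within a series, 1 Hz minus sham of Grm7 at 24 h was -0.30 in C and 0.38 in D. Setting each stimulated array against the sham array of its own series and time, 1 Hz was higher in 5 to 8 of 13 pairs and iTBS in 7 to 11 of 17 pairs for each of the genes over all times. At single times some pairs had 1 sign. At 0 h, Grm8 was lower in 7 of 7 pairs (-0.51 to -0.15) and Grm5 in 7 of 7 (-1.34 to -0.13), where both protocols were set against the same sham arrays. Grm8 was also lower in 4 of 4 iTBS pairs at 2 h (-0.60 to -0.14), and Grm6 was higher in 4 of 4 iTBS pairs at 0 h (0.16 to 0.50). At 24 h the sign was the other way, with Grm5 and Grm8 each higher in 5 of 5 pairs of both protocols. Grm3 was higher in 6 of 6 such pairs at 8 h and in 5 of 5 at 24 h. How many of all probes had pairs of 1 sign is not given. With each series at each time as a block, 4 of the 70 tests had an unadjusted p under 0.05, and none passed after adjustment. They were iTBS against sham for Grm8 at 0 h (-0.35 ± 0.17, adjusted p = 0.30) and 24 h (0.46 ± 0.19, adjusted p = 1.00), for Grm5 at 48 h (0.83 ± 0.34, adjusted p = 0.57) and for Grm3 at 48 h (0.67 ± 0.25, adjusted p = 0.57).

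**Figure D4:**
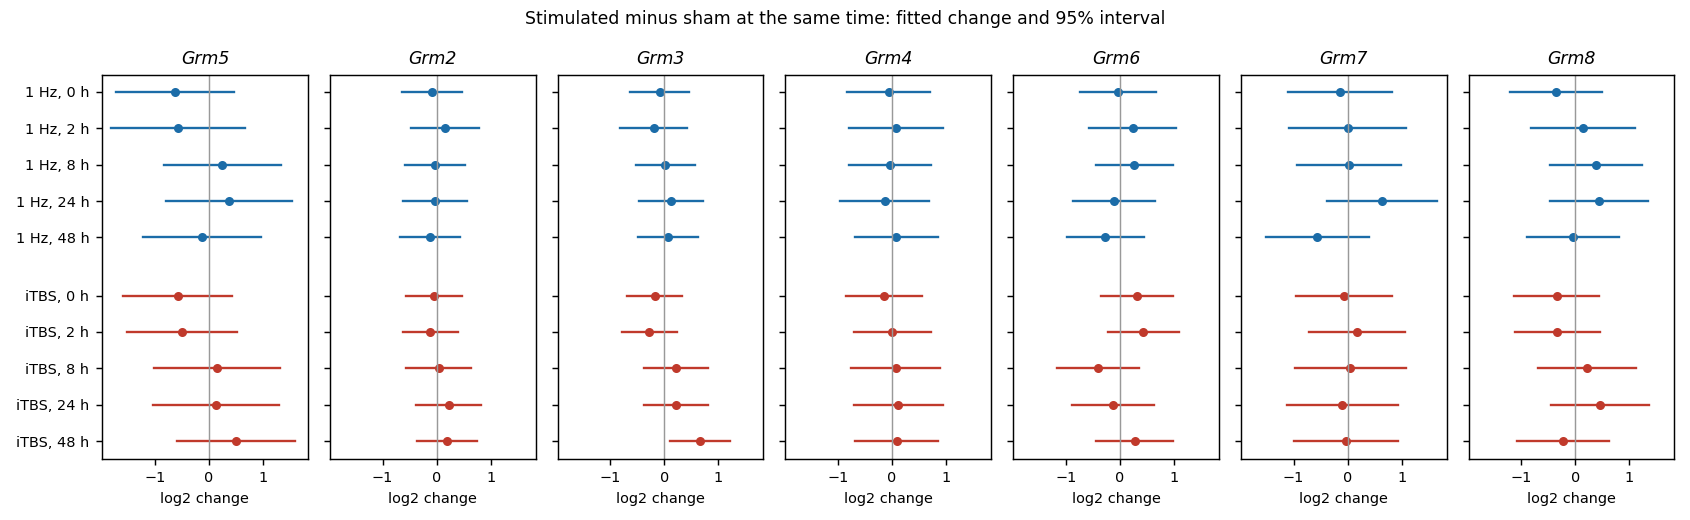
Fitted change of each receptor (1 panel per gene, x axis, log2) from sham at the same time for 1 Hz (blue) and iTBS (red), with lines for 95% intervals from limma. Every interval includes 0 except that of Grm3 at 48 h after iTBS, 0.11 to 1.21, which did not pass after adjustment.

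Averaged over the 5 times, no member differed from sham and no probe of the array passed (0%). Changes ran from -0.14 (Grm5, 1 Hz) to 0.13 (Grm3, iTBS), and the interval of the averaged iTBS change was narrowest for Grm3 (-0.12 to 0.37) and widest for Grm5 (-0.54 to 0.43). iTBS against 1 Hz at the same time gave no call among 35 tests (0% to 0.0056% of all probes passed). No member passed the test that stimulated minus sham is equal at the 5 times, for either protocol (14 tests, 0% of probes). Untreated control minus sham at 0 h ran from -0.26 ± 0.44 (Grm7) to 0.12 ± 0.39 (Grm8), with no call among 7 (0.0028% of probes). The untreated arrays were of series A and C only, while sham at 0 h held A, B, C and D, so this difference also holds differences between series.

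The third question was whether levels moved with time after the procedure, averaged over sham, 1 Hz and iTBS. Without a term for series no member passed the F test over the 5 times, which 8.16% of all probes passed. The smallest adjusted p was 0.10 for Grm3, whose mean level was 2.88 ± 0.19 (SD, n = 11) at 0 h, 2.92 ± 0.29 (n = 10) at 2 h, 2.68 ± 0.37 (n = 10) at 8 h, 2.42 ± 0.34 (n = 9) at 24 h and 2.53 ± 0.54 (n = 11) at 48 h. With the culture series as a block, Grm3 passed, alone among the 7 (adjusted p = 0.022), beside 27% of all probes.

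Against 0 h, Grm3 fell by 0.48 ± 0.15 at 24 h (adjusted p = 0.022, 14% of probes passing) and by 0.37 ± 0.14 at 48 h (adjusted p = 0.046, 27%) in the blocked fit. Without the block the changes were -0.46 ± 0.16 and -0.37 ± 0.15 (adjusted p = 0.10 and 0.12, 3.84% and 10.8% of probes passing). Comparing cultures of the same arm and series, Grm3 was lower at 24 h than at 0 h in 8 of 8 pairs, with differences of -0.88 to -0.17. All 8 pairs had their 2 arrays on different slides, as had all 10 pairs at 48 h. With slide as a block Grm3 did not pass (adjusted p of the F test 0.51), and its differences were -0.36 ± 0.23 at 24 h and -0.18 ± 0.25 at 48 h, so that time and slide are largely tied in these pairs. At 48 h it was lower in 8 of 10 pairs, and the 2 others were iTBS arrays of series A (2.61 to 3.63) and D (3.08 to 3.11). In sham alone it fell from 3.17 to 1.82 in series D, from 2.99 to 2.46 in A and from 2.89 to 2.53 in C over 48 h.

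**Figure D5:**
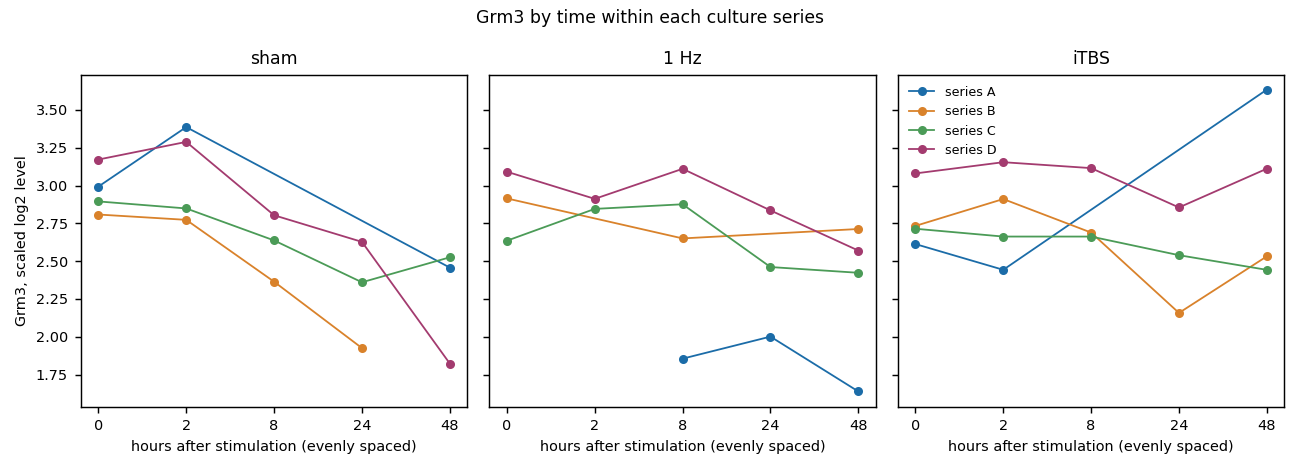
Scaled log2 level of Grm3 (y axis) by hours after stimulation (x axis, evenly spaced) in sham, 1 Hz and iTBS cultures, with the arrays of a series joined across times that were not sampled. In sham the lines of A, B, C and D fall towards 24 and 48 h, while after iTBS the line of A rises to 3.63 at 48 h.

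The blocked F test of Grm3 passed without any 1 of the 55 arrays (adjusted p = 0.0033 to 0.0457), the change at 24 h in 52 of 55 such fits and that at 48 h in 38. The call at 24 h was lost without sham at 24 h replicate 1 (adjusted p = 0.059), 1 Hz at 24 h replicate 1 (0.068) or iTBS at 24 h replicate 1 (0.058), and the weakest change at 48 h, -0.25, came without sham at 48 h replicate 3. Fitted by arm with the block, Grm3 did not pass in sham (-0.69 ± 0.25 at 24 h and -0.74 ± 0.25 at 48 h, adjusted p = 0.20 and 0.12), 1 Hz (-0.46 ± 0.27 and -0.52 ± 0.25) or iTBS (-0.30 ± 0.25 and 0.14 ± 0.23), and the difference between the courses of iTBS and sham did not pass either (adjusted p = 0.83). Over the same times the mean of the astrocyte list went from 6.39 at 0 h to 6.68 at 24 h and 6.98 at 48 h, that of the neuronal list from 6.05 to 5.85 and 6.08 and that of the excitatory list from 4.53 to 4.47 and 4.33. The part of these lists in the course of Grm3 was not tested.

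None of the other members passed with the block. Grm4, a presynaptic group III receptor, had the next smallest p at 48 h, with a change of 0.42 ± 0.17 at 48 h (adjusted p = 0.066). Its means were 3.57 ± 0.56 (SD, n = 11) at 0 h and 4.03 ± 0.43 (n = 11) at 48 h, with overlapping ranges of 2.68 to 4.43 and 3.42 to 4.74. In pairs of the same arm and series, Grm4 was lower at 48 h in 4 of 10 (-0.60 to 1.77, median 0.13). Every pair of series D was lower, and those of A and B were higher. Grm7 changed by -0.48 ± 0.23 at 48 h (adjusted p = 0.12), but was lower in only 5 of 10 such pairs (-1.45 to 0.59, median -0.06). At 8 h it was higher than at 0 h in 9 of 9 pairs of the same arm and series, by 0.12 to 0.70 (8 of these pairs lay on different slides). How many of all probes rose in as many pairs is not given. The second probe of Grm7, above background on all 55 arrays, went the other way. Its mean was 0.53 (n = 11) at 0 h and 0.35 (n = 10) at 8 h. Grm2, Grm5, Grm6 and Grm8 changed by at most 0.22 in size at 48 h.

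Where a gene had a second probe, it was set beside the first. For Grm5 both probes were above background on all arrays, correlated at r = 0.88 over the 55 arrays, and had the same sign in 4 of the 4 series contrasts called. The probes of Grm7 correlated at 0.65, with the same sign in 3 of 3. The second probes of Grm2 and Grm8 were above background on 45 and 33 of 55 arrays and correlated with the first at 0.23 and 0.37, with the same sign in 4 of 4 and 3 of 4. For Grm8 the contrast of C against B, 0.76 by the first probe, was -0.37 ± 0.28 by the second (adjusted p = 0.32), by which C (mean -2.97) and not B (-2.61) was the lowest series. The probes of Grm6 disagreed: the second was above background on all 55 arrays, but correlated with the first at -0.42, and 1 of 3 contrasts had the same sign. By the second probe Grm6 had means of -0.87 in A, -0.99 in B, 0.01 in C and 0.11 in D, so that C was not low. With series as a block it rose by 0.72 ± 0.17 at 24 h and 0.89 ± 0.16 at 48 h (adjusted p = 0.0031 and 8.5e-05), where the first probe gave -0.04 ± 0.18 and -0.22 ± 0.17. The values of Grm6 thus depend on the probe. No second probe passed in any of the 10 comparisons with sham. Grm3 and Grm4 had a single probe.

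The genes whose levels ran most like each receptor over the 55 arrays, among 10559 other genes above background on every array, are a description of shared variation, since arrays share series and slides. Grm7 ran with Kif5c, a kinesin motor of axonal transport (r = 0.92), Zbtb37 (0.91) and Grin2b, a subunit of NMDA receptors (0.89), and its correlation with Kif5c was 0.93 after group and series were removed. Grm4 ran with Cpne6 (0.88), Nrip3 (0.87) and Chn1 (0.83). Grm2 ran with Arsg (0.86), the postsynaptic calmodulin-binding protein gene Nrgn (0.86) and Ppp1r1b (0.83). Grm6 ran with Cldn15 (0.86), Hivep3 (0.84) and Gca (0.84). Grm5 ran with Slc38a1, an amino acid transporter (0.82), Slco3a1 (0.81) and Rgs7bp, a partner of Rgs7 (0.81), of which Rgs7bp fell to 0.49 once group and series were removed. Grm8 ran with Polg2 (0.76), Gopc (0.75) and Fam227a (0.74). Grm3 had the lowest values, 0.72 for Gna11, a Gq-class G protein, 0.71 for Robo1 and 0.69 for Sppl3.

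The partners of the receptors were read from a list of 58 genes in 4 roles, all of which were tested. None passed in any of the 10 comparisons with sham (580 tests, 2 with an unadjusted p under 0.05). Across series 52 of 58 passed (75.4% of all probes did): 15 of 18 partners of group I, 18 of 18 transducers and partners of groups II and III, 10 of 12 genes of desensitization and 9 of 10 of glutamate supply and uptake. In D against C, 25 of the 58 passed as higher and 14 as lower, beside 28.7% and 23.7% of all probes, with a median of 0.16 over the list and 0.04 over all probes. In D against B, 28 passed as higher and 12 as lower (28.8% and 24.1% of probes), with a median of 0.22 against 0.02. In D against A, 12 passed as higher and 16 as lower (21.7% and 20.01% of probes), with a median of -0.03 against 0.01.

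Among the partners of group I, Plcb3, a phospholipase C that Gq activates, was lower in D than in A, B and C, with differences of -1.40, -1.48 and -1.28, and the scaffold Homer3, which binds Grm5, was lower in D than in C (-0.83 ± 0.07). Among the partners of groups II and III, Elfn1, a synaptic adhesion protein that binds group III receptors, was lower in D than in C (-1.92 ± 0.16), and the G protein subunit Gnb5 was higher in D than in B by 1.06 ± 0.08. Its partner Rgs7, which speeds the shutdown of Gi and Go, was higher in D than in B by 0.95 ± 0.08, and Rgs17 by 0.85 ± 0.10. In glutamate handling, Glud1, glutamate dehydrogenase, and the glial transporter Slc1a3 were lower in D than in B (-0.65 ± 0.08 and -1.18 ± 0.13).

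With time, 4 of the 58 passed without the block (8.16% of probes) and 20 with it (27%). Glul, the glutamine synthetase of astrocytes, rose by 0.66 ± 0.19 at 24 h and 1.02 ± 0.18 at 48 h (adjusted p of the F test 4.4e-05), and the calcium-permeable channel Trpc1 by 0.40 ± 0.11 at 48 h (adjusted p = 0.011, and 0.0033 for the F test). Adenylyl cyclase 2, Adcy2, rose by 0.59 ± 0.15 at 48 h (adjusted p = 0.0077, and 0.031 for the F test). Rgs2, which limits Gq signalling, passed the F test (adjusted p = 0.031), but neither its contrast at 24 h (-0.75 ± 0.23, adjusted p = 0.053) nor that at 48 h (-0.59 ± 0.22, adjusted p = 0.073) passed. The second gene of each role passed the F test with the block and not without it (adjusted p without it 0.072 for Gna11, 0.10 for Gnao1, 0.066 for Rgs17 and 0.055 for the glutamate transporter Slc1a2). Their differences at 48 h without the block were -0.72 ± 0.23 for Gna11, whose contrast at 48 h did pass (adjusted p = 0.041), -0.40 ± 0.16 for Gnao1, 0.48 ± 0.19 for Rgs17 and 0.47 ± 0.17 for Slc1a2.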

How the data were processed

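RNA of rat hippocampal cultures was hybridised to one-colour Agilent arrays, 1 array per sample. The deposited scanner files hold processed signal intensity per spot from Agilent Feature Extraction 12.0.3.1, which is background-corrected by the authors' scanner software, and their annotation names genome build rn4. The authors deposited a table of score values too, z-scores of log2 signals that they normalized within each array. Recomputed z-scores differed from it by at most 0.005, and it served as an alternative. An aligner does not apply, and no column belonged to a sample outside the series.

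Outlier spots and controls were left out, spots of a probe averaged, and log2 signals turned into z-scores within each array, as in the study's methods, and brought back to log2 units with a common factor of 4.06 (median array SD). Of 45598 probes, 9471 that were well above background on fewer than 3 arrays and 420 with missing values were removed. limma 3.58.1 in R 4.3.3 fitted 1 mean per group over 55 arrays, and group plus series for the series, with two-sided tests. The script was tested on simulated data. Named genes were the 7 members, the 2 genes per pathway role with the smallest p for series and for time, and the 3 genes most like each member. The members and lists were chosen with earlier results of these data known. Alternatives were other scalings, filters and blocks, normexp on median signals (offset 50), the methods' z-test and each array left out in turn. Figures and tables used Python 3.11.15.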

Additional observations from a re-analysis of the deposited data

Results flagged for a closer look

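Of 56 sets of 4 arrays of a group, 1 held an array far from the other 3, where chance gives such a gap in about 1 set in 20. Grm7 was 0.52 in sham at 2 h replicate 2, from series C, against 1.01 to 1.07 in the other 3 arrays, a gap of 0.89 of the whole range. Those arrays were of series A, B and D. Over series C, Grm7 ran from 0.08 to 1.09 (mean 0.60), so the value was not unusual for its series.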

How the results depend on the processing

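With the badly gridded array put back (all 56 arrays), 6 of 35 tests of 1 Hz against sham and 6 of 35 of iTBS against 1 Hz passed, series passed for 3 of 7 members and for 17 pathway genes, pathway genes passed in 45 stimulation tests, and time passed for 0 pathway genes. The shares of all probes passing with all 56 arrays are not given, so these counts cannot be read as a result about the receptors. Time passed for 1 member, Grm3, with quantile normalization, with normexp, with series as a block, and with that block under 75th percentile scaling, quantile normalization, normexp or the deposited z-scores (the last 4 chosen after seeing the data). It did not pass with slide as a block (adjusted p = 0.51). Pathway genes passing for time were 9 with normexp and 20 with series as a block (27% of all probes with that block). The shares of all probes passing for time under the other scalings are not given. Counting every probe of the members, series passed for 12 of 12, beside 75.4% of all probes. The contrast of C and A reversed for Grm4 with slide as a block (0.55) and with all 56 arrays (0.024), and for Grm6 with all 56 arrays (0.035). The cause of these changes was not tested. Leaving out 1 array gave 6 to 7 members for series, 0 to 1 for time (Grm3 passed without iTBS at 48 h replicate 1, adjusted p = 0.048) and 0 to 0 for each comparison of arms. Of the 24 series contrasts, 17 held without any 1 array and 7 were lost in 2 to 37 of 55 such fits, most often Grm3 in D against A. The replicate block left 0 calls for stimulation and time, 6 of 7 members for series (Grm3 lost) and 14 of 24 contrasts. The share of all probes passing for series with this block is not given. Arrays of the same replicate number correlated at a mean of 0.16 (-0.46 to 0.78) and those of different numbers at -0.06. Within a series the mean was 0.40 and between series -0.13, so replicate numbers grouped the arrays less than the series did. The median of all probes in B against A was -0.04 as scaled here and 0.10 with 75th percentile scaling. By the methods' z-test and criteria, as rebuilt here for the 55 arrays and 35707 probes, 0 of 70 stimulation tests passed. Of all probes, 0% to 0.036% passed per comparison. This is not the authors' own run of their program. Standard errors of the 70 changes from sham were 0.25 to 0.61, 0.16 to 0.47 with series as a block and 0.12 to 0.42 with series at each time as a block.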
